A study of Mus musculus with 2 samples.

Results

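Non-classical monocytes were examined in J558 allografts, subcutaneous tumours grown from a mouse plasmacytoma line in female BALB/c mice. The scRNA-seq data comprised 1 library from the allograft of a mouse given TAK-931, an oral inhibitor of the replication kinase CDC7, once daily (QD) over 6 days at 60 mg/kg, and 1 library from the allograft of a mouse given the vehicle, 0.5% methylcellulose, for the same time. Both mice carried the J558 tumour and, by the study's text, were taken as representatives of their groups. With 1 library per treatment no spread between animals could be measured, so the values below are descriptions without tests, and all 95% intervals cover counting error only.

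Non-classical, or Ly6C-low, monocytes are blood cells that crawl along the inner wall of vessels and take up debris there. They are known to arise largely from classical Ly6C-high monocytes, to depend on the nuclear receptor NR4A1 and on CEBPB, and to hold to the endothelium through the integrin LFA-1 and the fractalkine receptor CX3CR1. Macrophages of a tumour also come largely from classical monocytes and are known for complement C1q, for scavenger receptors and for antigen presentation.

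The cells were chosen by a rule on counts. A barcode had to pass the study's quality limits (over 2000 genes and under 15% mitochondrial UMIs, the molecules counted per barcode), hold at least 3 UMIs of Ace, Treml4 and Adgre4 together, and hold under 10 UMIs of C1qa, C1qb and C1qc together. It also had to hold under 3 UMIs of Trap1a, the J558 tumour antigen, and no more than 1 UMI of the T cell receptor chains Cd3d, Cd3e and Cd3g together. Ace encodes angiotensin-converting enzyme, Treml4 an innate immune receptor of the TREM-like family and Adgre4 an adhesion receptor of the F4/80 family. In the TAK-931 library 216 of 3488 kept cells met the rule, and in the vehicle library 11 of 3441 did, so 227 cells of 6929 are described. The marker minimum alone left 334 TAK-931 cells, the C1q limit then 233, the Trap1a limit 231 and the CD3 limit 216. The same steps left 32, 15, 13 and 11 vehicle cells.

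Depth differed between the libraries. The vehicle library held 144767193 UMIs in 4565 barcodes with a median of 40504 UMIs per kept cell, and the TAK-931 library 77369283 UMIs in 6558 barcodes with a median of 15097. The 216 TAK-931 cells of the rule held between 5088 and 88391 UMIs, with a median of 11759.5. Of 8 cell barcodes found in both libraries, 1 belonged to a cell of the rule.

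**Figure D1:**
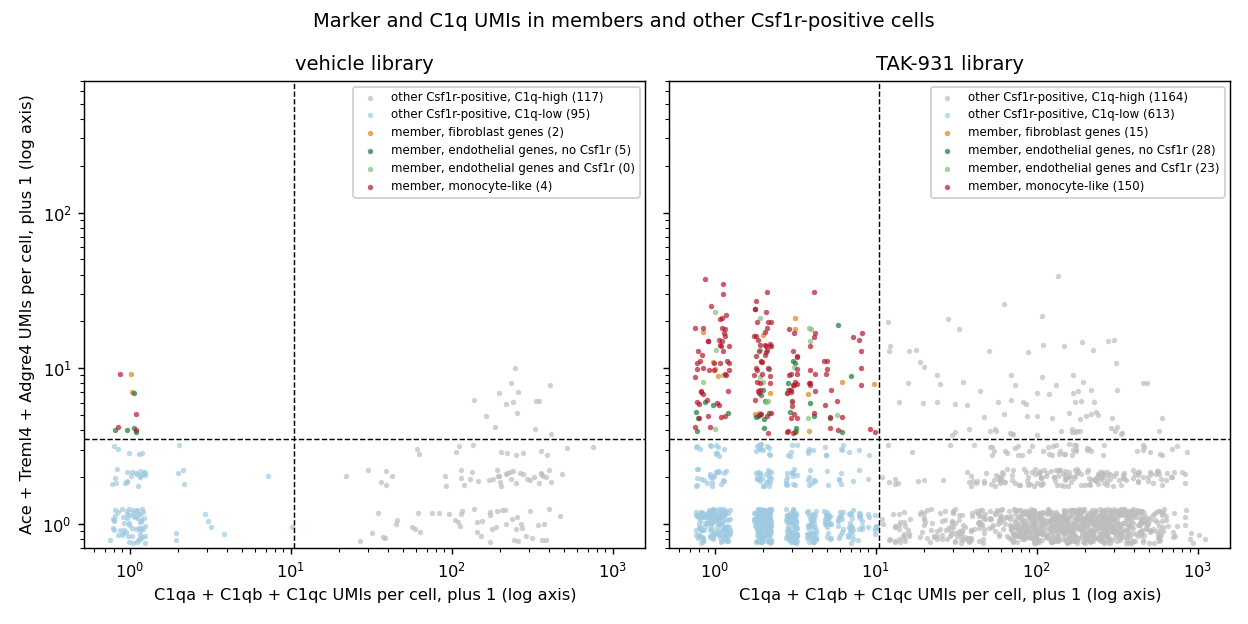
Each point is 1 cell of the rule (a member) or 1 other Csf1r-positive cell, in the vehicle panel or the TAK-931 panel, with the summed UMIs of Ace, Treml4 and Adgre4 against those of C1qa, C1qb and C1qc, each plus 1, slightly scattered and on log axes. Dashed lines mark the limits, and the cells of the rule, 11 vehicle and 216 TAK-931 cells, lie at the upper left. The other cells shown passed the Trap1a and CD3 limits. Those with 3 or more marker UMIs therefore lie beyond the C1q limit by the rule itself.

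The label was checked against markers that the rule did not use, and it held for only part of the cells. Of the 216 TAK-931 cells, 150 (69.4%) held under 10 UMIs of the endothelial genes Cdh5, Kdr, Cldn5, Vwf and Plvap together and under 20 UMIs of 6 fibroblast genes (Col1a1, Col1a2, Col3a1, Pdgfra, Dcn and Lum). These limits were set after the cells had been seen. The 150 cells are called monocyte-like cells below. Ptprc, which encodes the leukocyte antigen CD45, was found in 149 of them, and Csf1r, the receptor for the monocyte growth factor CSF1, in 145.

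The other 66 cells carried genes of vessel walls or connective tissue. A group of 28 cells (13%) had endothelial genes and no Csf1r, with a median of 88.5 endothelial UMIs per cell (31 to 229), and Ptprc in only 3 of the 28. A group of 23 cells (10.6%) had endothelial genes and Csf1r together, with a median of 39 endothelial UMIs (10 to 205) and Ptprc in 22 of the 23. The remaining 15 cells (6.94%) had fibroblast genes, with a median of 2147 fibroblast UMIs (347 to 5918), and Ptprc in 4. Within the 150 monocyte-like cells no cell held over 9 endothelial or over 3 fibroblast UMIs, and only 4 of the 216 cells held between 5 and 19 endothelial UMIs, so few cells lay near that limit.

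Ace, which endothelium is also known to express, brought most of these cells under the rule. Of the 28 endothelial cells without Csf1r, 26 met the marker minimum on Ace alone, as did 14 of the 15 fibroblast-bearing cells, 6 of the 23 cells with endothelial genes and Csf1r, and 3 of the 150 monocyte-like cells. The 28 endothelial cells held Treml4 at 1.21 CPM (the gene's UMIs with every group scaled to the same total) and no UMI of Spic or Cd300ld. In the 23 cells with both programmes the levels were between, with Treml4 at 82.5 CPM, Cd300ld at 117 CPM, Cdh5 at 815 CPM and Csf1r at 115 CPM. Their median depth was 27216 UMIs, against 9498.5 UMIs in the monocyte-like cells and 28179 UMIs in the endothelial cells without Csf1r. Whether the 23 barcodes each hold more than 1 cell was not tested.

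**Figure D2:**
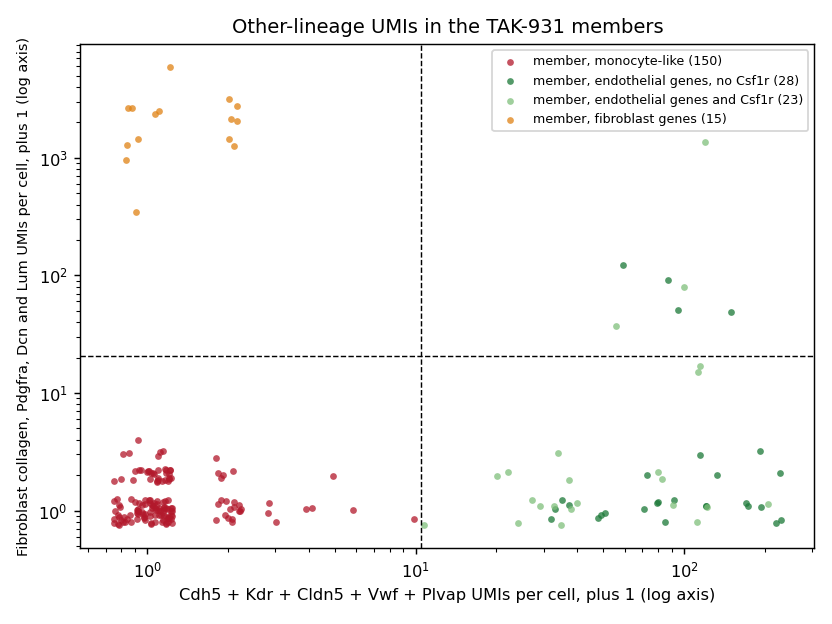
The 216 TAK-931 cells of the rule by their endothelial UMIs (horizontal) and fibroblast UMIs (vertical) per cell, each plus 1, slightly scattered and on log axes, coloured by group. The 150 monocyte-like cells lie below both dashed limits, the 28 and 23 endothelial-bearing cells to the right, a few of them also above the fibroblast limit, and the 15 fibroblast-bearing cells at the upper left.

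Summed as they stand, the 216 cells therefore showed the vascular and stromal genes of the 66 cells first. Against the other 1777 Csf1r-positive cells of the TAK-931 library (those outside the rule that passed its Trap1a and CD3 limits), 1495 of 10186 genes, 14.7%, were at least 2-fold higher and 586 genes, 5.75%, at least 2-fold lower. A gene entered this count when at least 10 UMIs were expected in each sum, and a gene at least 2-fold apart is called higher or lower throughout. The 15 named genes with the highest ratios, from 4.22 to 4.89 on the log2 scale, were Cav1, Fbln5, Fabp4, Efnb2, Tgfbr3, Cdh5, Ramp2, Ptprb, Fbln2, Tm4sf1, Sparc, Atp8b1, Tjp1, Fstl1 and Esam, several of them known from vessels or matrix. The caveolar protein gene Cav1 was at 605 against 20.4 CPM, a log2 ratio of 4.89 (4.76 to 5.02), and Cdh5, the adhesion molecule of endothelial junctions, at 484 against 21.7 CPM, 4.48 (4.35 to 4.61). Sparc, which encodes a matrix glycoprotein, was at 3033 against 153 CPM, 4.31 (4.26 to 4.36). The 10 named genes with the lowest ratios were the chemokine gene Ccl12 at -5.35, the sialoadhesin gene Siglec1 at -5.28, and Mrc1, Trem2, Blnk, Ccl8, Ms4a7, Apoe, Ccl5 and Hal, from -5.06 to -3.15.

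The gene lists read the same way. All 6 endothelial markers were higher in the 216 cells, with a median log2 ratio of 3.63, and all 6 fibroblast markers, with a median of 4.93, while the median over all genes tested was 0.15. Of 20 genes known from non-classical monocytes 14 were higher and none lower, with a median of 1.40. This list was not specific to monocytes. It summed to 16310 CPM in the endothelial cells without Csf1r, although 5 of its genes had no UMI there, and to 8463 CPM in the monocyte-like cells. The part of the endothelial cells in the list's result for the 216 cells was not tested. Against the 613 Csf1r-positive cells with under 10 C1q UMIs, 1847 of 10440 genes (17.7%) were higher and 559 (5.35%) lower. Against the 1164 with 10 or more C1q UMIs, 1730 of 10224 genes (16.9%) were higher and 611 (5.98%) lower. When cells over the endothelial or fibroblast limits were left out of both sides, the count of genes higher than in all other Csf1r-positive cells was 419. The limits use these marker genes, other than Pecam1, and so fix the loss of the marker differences: 3 of the 6 fibroblast markers could still be tested, and none was higher or lower. All further comparisons use the 150 monocyte-like cells, and comparison cells under the same limits: 592 C1q-low cells (median 12742.5 UMIs) and 1129 C1q-high cells (median 16824 UMIs).

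In single monocyte-like cells the rule genes were found together. All 3 genes were present in 99 of the 150 cells, Ace and Treml4 alone in 20, Ace and Adgre4 alone in 11, and Treml4 and Adgre4 alone in 9. The remaining cells held 1 of the genes, Ace in 3, Treml4 in 7 and Adgre4 in 1. Ace ranged from 0 to 22 UMIs per cell (median 3), Treml4 from 0 to 18 (median 3) and Adgre4 from 0 to 11 (median 2), and their sum from 3 to 36 (median 9). Since these values chose the cells, their differences from other cells carry no information about them. They are given only for scale: Ace was at 416 CPM, Treml4 at 340 CPM and Adgre4 at 221 CPM in the monocyte-like cells, and between 3.33 and 16.3 CPM in the C1q-low and C1q-high cells.

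Spic and Cd300ld, which mark the same monocytes and were not used by the rule, went with it. Both genes were chosen with earlier results of these data known, so their levels describe the cells and test nothing. Spic, a transcription factor of the ETS family best known from iron-recycling macrophages of the spleen, was at 264 CPM (240 to 290) in the monocyte-like cells, 31.8 CPM in C1q-low cells, 58.7 CPM in C1q-high cells and 0.835 CPM in T cells. Cd300ld, an activating receptor of the CD300 family, was at 664 CPM (625 to 705), 112 CPM, 120 CPM and 1.53 CPM in the same order. The log2 ratios were 3.05 (2.83 to 3.28) for Spic and 2.56 (2.44 to 2.69) for Cd300ld against C1q-low cells, and 2.17 (2.01 to 2.33) and 2.47 (2.36 to 2.57) against C1q-high cells. A cell held between 0 and 32 Spic UMIs (median 0.5) and between 0 and 25 Cd300ld UMIs (median 6). Both genes were present in 73 cells, Cd300ld alone in 69, Spic alone in 2 and neither in 6.

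With every cell thinned to 4000 UMIs, so that depth was equal, Cd300ld was found in 82.0% of the monocyte-like cells (74.9 to 87.8), 33.3% of C1q-low and 34.4% of C1q-high cells. Spic was found in 36.7% (29.0 to 44.9), 8.61% and 17.0%. In 693 T cells, which should lack both genes (median 14935 UMIs), each was found in 0.289% of thinned cells. Without thinning the shares in the monocyte-like cells were 94.7% for Cd300ld and 50% for Spic. The levels of both genes in comparison cells were therefore above that of T cells, and those in the monocyte-like cells were the highest of the 4 groups.

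**Figure D3:**
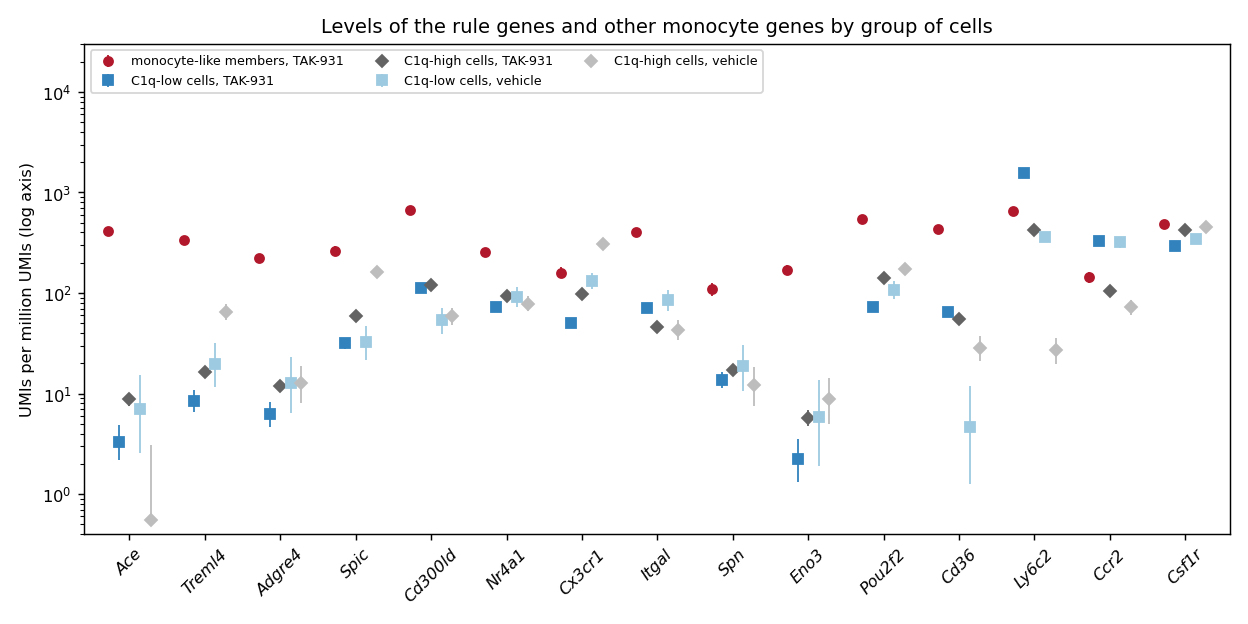
Levels in CPM (log axis, lines for 95% counting intervals) of the rule genes, Spic, Cd300ld and other monocyte genes in the monocyte-like cells, C1q-low and C1q-high cells of the TAK-931 library and C1q-low and C1q-high cells of the vehicle library. Spic and Cd300ld, which the rule did not use, are at 264 and 664 CPM in the monocyte-like cells, against 31.8 and 112 CPM in C1q-low cells and 58.7 and 120 CPM in C1q-high cells of the same library.

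On the mouse assembly GRCm38, the build behind mm10, the annotated genes lie as follows. Ace (ENSMUSG00000020681) spans chromosome 11 from 105967945 to 105989964 on the plus strand, and Cd300ld (ENSMUSG00000034641) lies on the minus strand of the same chromosome from 114982274 to 114989922. Treml4 (ENSMUSG00000051682) spans chromosome 17 from 48264295 to 48275360 and Adgre4 (ENSMUSG00000032915) from 55749984 to 55853662, both on the plus strand. Spic (ENSMUSG00000004359) spans chromosome 10 from 88674772 to 88685015 on the minus strand. UMIs were counted over whole genes, so the values do not tell exons, introns or UTRs apart.

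The monocyte-like cells also lay together by genes the rule did not use. In 20 principal components of 2000 variable genes, with all rule genes left out, 61.8% of the 20 nearest neighbours of a monocyte-like cell were monocyte-like, although these were 7.53% of the cells. Of their neighbours 22.2% were cells with under 10 C1q UMIs and 15.8% cells with more, and 0.167% were cells with endothelial genes and Csf1r. More than 50% of neighbours were of their own kind for 92 of the 150 cells, and 7 cells had none. Endothelial cells without Csf1r had 49.6% of neighbours of their own group and no monocyte-like neighbour, and fibroblast-bearing cells 64.3% and none. The genes of the endothelial and fibroblast limits were not left out of the components, so the limits may set part of this separation. The 23 cells with endothelial genes and Csf1r lay among several groups, with 34.8% of neighbours among C1q-high cells, 23.9% in their own group and 1.30% among monocyte-like cells.

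Against the C1q-low cells, the most alike group, the monocyte-like cells differed by 2-fold in few genes. Of 7751 genes tested 318 (4.10%) were higher and 453 (5.84%) lower, and the median log2 ratio over all of them was -0.02. Of the 20 non-classical monocyte genes 17 were higher and none lower, with a median of 2.44 (2.31 to 2.57). Against C1q-high cells 612 of 7778 genes (7.87%) were higher and 715 (9.19%) lower, with a median of 0.06 over all genes. There 14 of 19 non-classical genes tested were higher and none lower, with a median of 1.95 (1.84 to 2.06). The list was drawn up with earlier results of these data known, and cells chosen on 3 genes of this kind are apt to hold others, so the counts describe the cells and test nothing. Scaling by the median ratio of well-counted genes in place of total UMIs shifted every log2 ratio against C1q-high cells by 0.24 and those against C1q-low cells by 0.05, and changed none of these list directions, but left 366 genes higher than in C1q-high cells.

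Among the regulators, Nr4a1, the nuclear receptor on which these monocytes depend, was at 255 CPM, against 72.6 CPM in C1q-low and 92.6 CPM in C1q-high cells, log2 ratios of 1.81 (1.63 to 2.00) and 1.46 (1.30 to 1.61). Its relatives Nr4a2 and Nr4a3 were not higher, at -0.74 and -0.93 against C1q-low cells. Pou2f2, which encodes the octamer-binding factor OCT2, was at 549, 72.2 and 142 CPM, log2 ratios of 2.93 (2.77 to 3.08) and 1.95 (1.84 to 2.06). Klf2, a factor of monocyte and endothelial quiescence, was under the 2-fold limit at 0.97 and 0.64, and Cebpb, at 2916 CPM the most abundant of these factors by UMIs, at 0.33 and 0.99. Irf4, a factor of monocyte-derived dendritic cells, had 1 UMI in all 150 cells, a log2 ratio of -4.52 (-9.83 to -2.01) against C1q-low cells. Of 15 transcription factors of monocyte fate, Nr4a1, Pou2f2 and Spic were thus higher in both comparisons, and Irf4 lower in both.

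Adhesion genes of patrolling were higher in part. Itgal, the alpha chain of LFA-1, was at 400 CPM against 71.4 and 46.3 CPM, log2 ratios of 2.49 (2.32 to 2.65) and 3.11 (2.97 to 3.26). Its partner chain Itgb2 was at 606, 372 and 257 CPM, 0.71 and 1.24. Itga4, the alpha chain of VLA-4, was at 397, 101 and 54.9 CPM, 1.98 (1.83 to 2.13) and 2.85 (2.71 to 2.99). The alpha chain of MAC-1, Itgam, differed by -0.04 (-0.26 to 0.18) from C1q-low cells. Of 10 adhesion genes tested 4 were higher in each comparison, and Itgal and Itga4 were among them in both.

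Cx3cr1, the fractalkine receptor, was at 160 CPM, against 50.4 CPM in C1q-low and 98.5 CPM in C1q-high cells, log2 ratios of 1.66 (1.43 to 1.89) and 0.70 (0.50 to 0.88). It was therefore above 2-fold against C1q-low cells only. S1pr5, a sphingosine phosphate receptor known for the exit of these monocytes from bone marrow, had 25 UMIs in the 150 cells (15.5 CPM), none in the 592 C1q-low cells and 5 in the 1129 C1q-high cells (0.234 CPM). Against the floor of 3 UMIs in the C1q-low sum, S1pr5 was at least 41.8-fold higher, but it was below the count limit for tested genes and 24.0% of its UMIs lay in 1 cell.

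Eno3, Cd300e, Spn, Pecam1 and Cd36 were higher in both comparisons. Eno3, the muscle form of the glycolytic enzyme enolase, was at 171 CPM against 2.22 CPM in C1q-low cells, a log2 ratio of 6.27 (5.58 to 7.04), and at 5.75 CPM in C1q-high cells, 4.89 (4.58 to 5.21). It was found in 57.3% of the monocyte-like cells without thinning, against 2.87% of C1q-low cells. Cd300e, a further activating CD300 receptor, was at 131, 7.64 and 33.9 CPM. Spn, the leukocyte sialoglycoprotein CD43 used to sort these monocytes, was at 109, 13.7 and 17.0 CPM, and Pecam1, the adhesion molecule CD31 of leukocytes and endothelium, at 198, 23.5 and 41.1 CPM. Cd36, a scavenger receptor for oxidised lipids, was at 436, 64.3 and 55.4 CPM, with log2 ratios of 2.76 (2.60 to 2.93) and 2.98 (2.84 to 3.11). Named against C1q-high cells were also Ifitm6 at a log2 ratio of 4.40, the keratin gene Krt80 at 3.87, the haptoglobin gene Hp at 3.27 and the myeloid receptor gene Trem1 at 3.23.

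The other named genes higher than in C1q-low cells were Lilra5, a leukocyte immunoglobulin-like receptor, at 4.72, the ion cotransporter gene Slc12a2 at 4.55, Tmem26 at 4.12, the telomere-binding protein gene Pot1b at 3.61 and the adhesion molecule gene Ceacam1 at 3.36. They further included the phosphodiesterase gene Smpdl3b at 2.77, the MAP kinase phosphatase gene Dusp16 at 2.76 and the fatty acid-binding protein gene Fabp4 at 2.75, although 19.2% of the Fabp4 UMIs came from 1 cell. Against C1q-high cells the orphan receptor gene Gpr141 was at 377 against 22.2 CPM, 4.08 (3.91 to 4.26), and F10, which encodes coagulation factor X, at 232 against 19.2 CPM, 3.60 (3.39 to 3.80). Cd9, a tetraspanin, was at 286 against 31.5 CPM. Ear2, a ribonuclease gene used as a marker of these monocytes, was at 74.8, 11.3 and 5.75 CPM, the innate receptor gene Trem3 at 89.7, 13.7 and 5.84 CPM, and the transcription factor gene Runx2 at 3.94 against C1q-high cells.

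**Figure D4:**
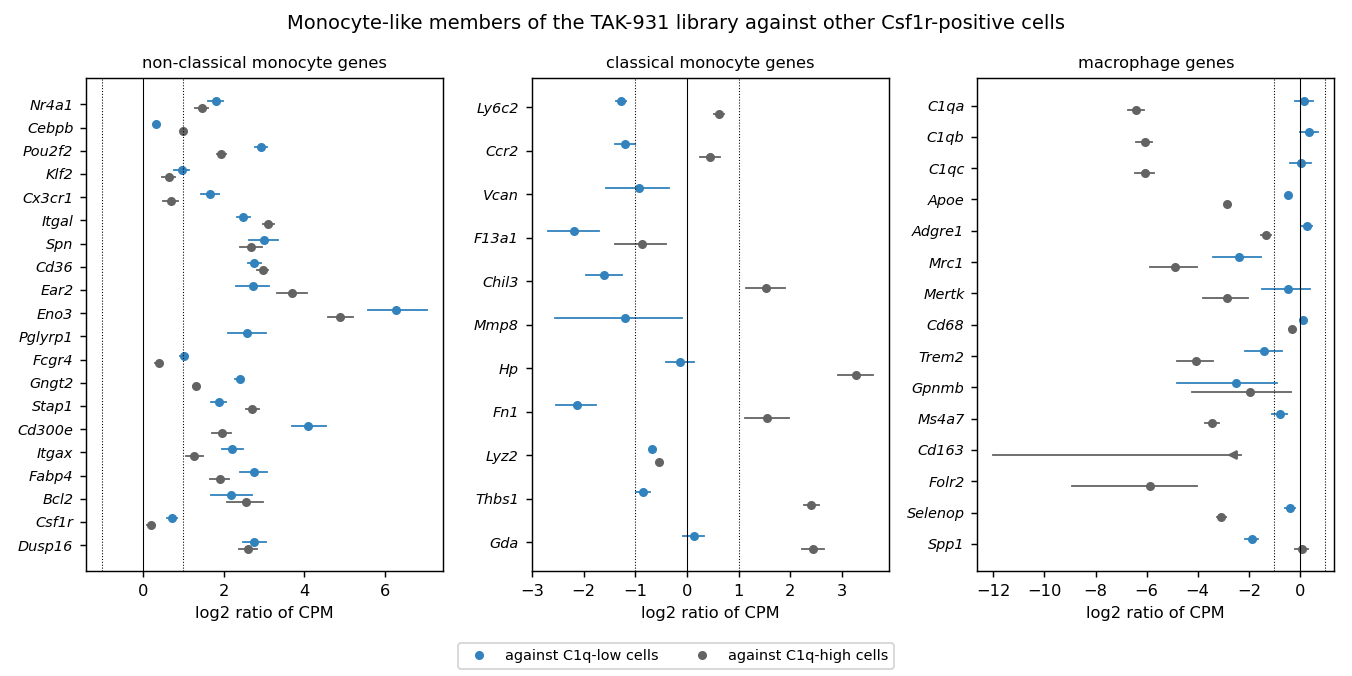
Log2 ratios of single genes, as points with 95% counting intervals, of the non-classical, classical and macrophage lists, for the 150 monocyte-like cells against C1q-low (blue) and C1q-high (grey) cells. Dotted lines mark 2-fold, interval lines are cut at -12, and a triangle marks a gene with no UMI in the monocyte-like cells, set to 3 UMIs. Non-classical genes lie above 0 in both comparisons (medians 2.44 and 1.95), while the classical median is -1.06 against C1q-low and 1.55 against C1q-high cells.

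Classical monocyte genes were lower in part than in C1q-low cells and, gene by gene, higher in part than in C1q-high cells. Of 12 tested against C1q-low cells 6 were lower and none higher, with a median of -1.06 (-1.48 to -0.67). Against C1q-high cells 6 of 10 were higher and none lower, with a median of 1.55 (1.14 to 1.94), or 0.53 over genes with at least 50 expected UMIs. Their summed level was nevertheless the lowest of the 3 groups, at 6874 CPM against 11822 CPM in C1q-low and 8461 CPM in C1q-high cells, of which Lyz2, the lysozyme gene, was 5305, 8526 and 7752 CPM. Ly6c2, which encodes the antigen that defines classical monocytes, was at 649 CPM against 1572 CPM in C1q-low and 422 CPM in C1q-high cells, log2 ratios of -1.28 (-1.37 to -1.19) and 0.62 (0.53 to 0.71). Ccr2, the receptor for the monocyte chemokine CCL2, was at 143, 329 and 105 CPM. The cells were thus not free of classical genes: Ly6c2 was found in 98 of 150 cells, with a median of 3 and a maximum of 50 UMIs, and at 140 CPM in T cells.

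Macrophage genes were far below the C1q-high cells. Of 15 tested 13 were lower and none higher, with a median of -3.07 (-3.25 to -2.90), the 3 C1q genes among them by the rule. Without the C1q genes 10 of 12 were lower, with a median of -2.84. Apoe, the apolipoprotein of lipid-laden macrophages, was at 2588 against 18662 CPM in C1q-high cells, -2.85 (-2.89 to -2.81), and at 3553 CPM in C1q-low cells. Mrc1, the mannose receptor, was at 6.80 against 199 CPM, -4.87 (-5.87 to -4.03), and Folr2, the folate receptor of resident macrophages, at 1.24 against 72.2 CPM. Pf4, Clec10a, Siglec1, Sash1, Igf1 and Ccl12 were each lower by more than 4 on the log2 scale. Against C1q-low cells 5 of 14 macrophage genes were lower and none higher, with a median of -0.47 (-1.0 to -0.01), or 5 of 11 and -0.80 without the C1q genes. Over genes with at least 50 expected UMIs the median was 0.038 (-0.38 to 0.44), an interval that includes 0.

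Genes of iron-recycling macrophages, the list that includes Spic and the rule gene Treml4, differed between the comparisons. Against C1q-low cells all 5 tested were higher, with a median of 1.92 (1.46 to 2.37), and against C1q-high cells 3 of 6 were higher and 2 lower, with a median of 0.40 (0.17 to 0.61). Treml4 was among those higher in both comparisons because it chose the cells. Without Treml4 the middle gene against C1q-high cells would be Slc40a1, at 45.1 against 64.2 CPM and so below those cells. Hmox1, the haem-degrading oxygenase, was at 788 CPM against 372 and 319 CPM, 1.08 (0.99 to 1.18) and 1.31 (1.22 to 1.39), with 15.8% of its UMIs in 1 cell. Slc40a1, the iron exporter ferroportin, was at 45.1 against 12 CPM in C1q-low cells and 64.2 CPM in C1q-high cells, with 34.2% of its UMIs in 1 cell. Vcam1 was higher than in C1q-low cells at 1.05 (0.64 to 1.44) but lower than in C1q-high cells at -2.32 (-2.67 to -1.99), with 30.7% of its UMIs in 1 cell, and Cd5l had 2 UMIs.

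The chemokine genes Ccl2, Ccl5, Ccl7 and Ccl12 were lower in both comparisons, and Il1b was higher than in C1q-high cells. Of 14 inflammatory genes tested against C1q-low cells 7 were lower and none higher, with a median of -1.04 (-1.59 to -0.55), and against C1q-high cells 6 of 13 were lower and 1 higher, with a median of -0.70 (-0.94 to -0.48). Ccl2, which recruits CCR2-bearing monocytes, was at 60.6 CPM against 441 and 436 CPM, log2 ratios of -2.86 (-3.17 to -2.57) and -2.85 (-3.15 to -2.56). Ccl7 was at 24.1 against 143 and 412 CPM, and Ccl5 at 140 against 575 and 807 CPM, with 53.1% of the Ccl5 UMIs in 1 cell. Ccl8 was at 213 CPM against 247 CPM in C1q-low and 5343 CPM in C1q-high cells. Il1b, the interleukin 1 beta gene, was at 887 CPM against 489 and 281 CPM, 0.86 (0.77 to 0.95) and 1.66 (1.57 to 1.74). Tnf was at 202, 158 and 135 CPM, and Il6 had no UMI.

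No MHC class I gene and a minority of class II genes were past 2-fold. None of the 9 MHC class I genes was 2-fold apart from either group, with medians of -0.02 (-0.19 to 0.14) and 0.03. Of 7 MHC class II genes 2 were lower than in C1q-low cells, with a median of -0.59 (-0.63 to -0.55), and 3 were lower than in C1q-high cells, with a median of -0.97 (-1.0 to -0.94). H2-Aa, a chain of the class II molecule I-A, was at 4165 CPM against 6264 and 8455 CPM. H2-DMa, which loads peptides onto class II molecules, was at 289, 673 and 563 CPM. Among Fc gamma receptors, Fcgr4, the low-affinity receptor of non-classical monocytes, was at 777, 381 and 591 CPM, 1.03 (0.93 to 1.12) and 0.39 (0.31 to 0.48). Fcgr1, the high-affinity receptor of classical monocytes and macrophages, was at 218, 567 and 347 CPM, -1.38 (-1.54 to -1.22) and -0.67 (-0.83 to -0.52). Of the 3 groups, the monocyte-like cells thus had the highest Fcgr4 and the lowest Fcgr1.

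The median of interferon-stimulated genes was -0.60 (-0.85 to -0.35) against C1q-low cells, where Isg15, Ifit1 and Ifit3 of 18 genes were lower and none higher, and 0.10 (-0.22 to 0.40) against C1q-high cells, where Ifit3 was lower. Genes induced by interferon gamma had medians of 0.02 (-0.14 to 0.18) and 0.82 (0.70 to 0.94), with the guanylate-binding protein genes Gbp2 and Gbp5 and Cd274 higher than in C1q-high cells. Cd274, which encodes the checkpoint ligand PD-L1, was at 455 CPM against 321 and 204 CPM, 0.50 (0.38 to 0.62) and 1.16 (1.04 to 1.27). The costimulatory gene Cd86 was at 250, 208 and 123 CPM. Cxcl9, a chemokine gene for CXCR3-bearing T cells, was at 376, 901 and 424 CPM. The other checkpoint ligand genes Tnfsf9 and Tnfsf14 were lower in both comparisons, each with 6 or fewer UMIs.

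Survival genes included Bcl2, the anti-apoptotic gene known to hold these monocytes alive, at 39.6 CPM against 8.63 and 6.77 CPM, 2.20 (1.69 to 2.71) and 2.55 (2.10 to 2.98). The related Bcl2a1d was at 299, 68.3 and 82.5 CPM, and Bcl2a1b at 472, 180 and 244 CPM, but reads of these near-identical copies can be split between them. Bcl2l1 was lower at -1.26 and -1.32, and the pro-apoptotic Bax differed by -0.06 and 0.11. Among cell cycle genes, Mki67 had 5 UMIs and Top2a 7 UMIs in the 150 cells, 3.09 and 4.33 CPM against 19.7 and 18.2 CPM in C1q-low cells, and 8 of 10 cell cycle genes tested were lower than in C1q-high cells, with none higher. The summed level of the list was 262 CPM against 282 and 295 CPM, most of it Pcna, the replication clamp gene, at 221, 189 and 152 CPM, and the median against C1q-high cells was 0.54 over genes with at least 50 expected UMIs. Csf1r itself was at 491, 296 and 427 CPM.

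Among CD300 and paired receptor genes 6 of 14 were higher and 1 lower than in C1q-low cells, with a median of 0.91 (0.77 to 1.05), and 8 of 14 higher and 1 lower than in C1q-high cells, with a median of 1.22 (1.08 to 1.36). Cd300e, Cd300ld, Pilra, Pilrb1 and Trem3 were higher in both. Pilra, an inhibitory receptor for sialylated proteins, was at 198, 57.6 and 70.6 CPM. Treml1 and Treml2, neighbours of Treml4 in name, were not part of this: Treml1 had no UMI, and Treml2 was at 2.47 CPM (4 UMIs) against 8.87 and 10.2 CPM. Phagocytosis and lysosome genes had medians of -0.43 and -0.85, with Cd36 the only one higher. Ctsl, the protease cathepsin L, was lower in both comparisons at -1.66 (-1.81 to -1.51) and -2.0 (-2.15 to -1.85), while cathepsin B (Ctsb) was at 0.55 and -0.51.

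Genes with lower levels than in C1q-low cells were otherwise led by Hal, the histidine-degrading enzyme, at 6.80 against 78.8 CPM, -3.53 (-4.54 to -2.68), followed by the syndecan gene Sdc4 at -2.91, the lysophosphatidic acid receptor gene Lpar1 at -2.90, Dmkn at -2.84, the potassium channel gene Kcnn4 at -2.81 and Selenom at -2.64. The cyclin gene Ccnd1 was at -2.50 and Ndrg1, a gene induced by low oxygen, at 19.8 against 108 CPM, -2.45 (-3.01 to -1.94). Trophic genes with lower levels were Il1rn, the interleukin 1 receptor antagonist, at 124 against 472 CPM, and Vegfa, the vascular growth factor, at 108 against 221 CPM.

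T cell, B cell, platelet, dendritic cell, NK cell and fibroblast markers each summed to under 40 CPM in the monocyte-like cells. Endothelial, neutrophil, plasmacytoid dendritic cell and J558 markers each summed to 126 CPM or more. In all 3 groups the rule caps CD3 and Trap1a UMIs, and the endothelial and fibroblast limits cap UMIs of those genes. The T cell, J558, endothelial and fibroblast sums were therefore set in part beforehand. The 8 T cell markers summed to 22.3 CPM, against 21.1 CPM in C1q-low and 37.8 CPM in C1q-high cells, with 122 of 150 cells at 0 and Cd4 without a UMI. The 5 B cell markers summed to 4.33 CPM with Pax5 at 0, the 5 platelet markers to 3.09 CPM with 4 of the 5 at 0, and the 8 dendritic cell markers to 16.1 CPM against 91.6 and 58.1 CPM, with Flt3 at 0. The 6 neutrophil markers summed to 126 CPM against 146 and 78.0 CPM, most of it Csf3r, which monocytes share, with Ly6g and Retnlg at 0. The 6 NK cell markers summed to 32.2 CPM, and 72.4% of the UMIs of Gzma, the most abundant, lay in 1 cell. The 6 endothelial markers summed to 229 CPM against 49.2 and 67.7 CPM, of which Pecam1 was 198 CPM. The 6 fibroblast markers summed to between 23.7 and 41.3 CPM in the 3 groups, and the 5 plasmacytoid dendritic cell markers summed to 297 CPM against 523 and 515 CPM. The J558 immunoglobulin light chain gene Iglc1 was at 356 CPM, against 266 and 291 CPM in the comparison groups, and was found in 58.7% of thinned cells, and the 7 J558 markers summed to 504, 418 and 406 CPM. The part of these sums in the results above was not tested.

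Chemokine and ferritin genes were among those that varied most between the cells. With each cell thinned to 4000 UMIs, the neutrophil chemokine gene Cxcl2 had a variance of 93.6 times its mean, as 1 cell held 307 UMIs and 26.6% of all its UMIs, and the median cell held 1. The next were the ferritin gene Fth1 at 44.4, Apoe at 18.1, the class II invariant chain gene Cd74 at 17.5, the lysozyme gene Lyz2 at 17.3, the chemokine gene Ccl4 at 16.9, the nuclear RNA gene Malat1 at 16.7, the ferritin gene Ftl1 at 15.5, Hmox1 at 15.2 and the chemokine gene Ccl3 at 14.7. Over all 216 cells of the rule the collagen genes Col3a1 (124), Col1a1 (86.5) and Col1a2 (79.1) were at the top with Cxcl2 (81.4), and each collagen gene was present in under 14% of cells.

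Monocyte-like cells with more Ly6c2 UMIs held lower levels of Nr4a1, Eno3, Pou2f2, Spic and Cd300ld. No Ly6c2 UMI was found in 52 cells (median 8170.5 UMIs), 1 to 10 UMIs in 57 cells (median 9443) and over 10 UMIs in 41 cells (median 12602). Nr4a1 was at 311, 293 and 169 CPM across these groups, Eno3 at 260, 183 and 85.2 CPM and Pou2f2 at 933, 476 and 318 CPM. Cd300ld was at 907, 713 and 417 CPM, Spic at 375, 258 and 181 CPM. The rule genes, given as a description, were at 534, 446 and 288 CPM for Ace, 474, 371 and 199 CPM for Treml4 and 335, 233 and 115 CPM for Adgre4. Ccr2 was at 39.7, 125 and 247 CPM and H2-Aa at 2884, 4551 and 4783 CPM. The classical genes other than Ly6c2 summed to 2758, 5616 and 9660 CPM and the interferon-stimulated genes to 1019, 2086 and 3415 CPM, while MHC class I genes stayed within 12691 to 13789 CPM. Median depth was higher in the classes with more Ly6c2 UMIs, and a fixed minimum of 3 rule UMIs stands for a higher rule-gene level in a shallower cell. The part of depth in these differences was not tested.

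**Figure D5:**
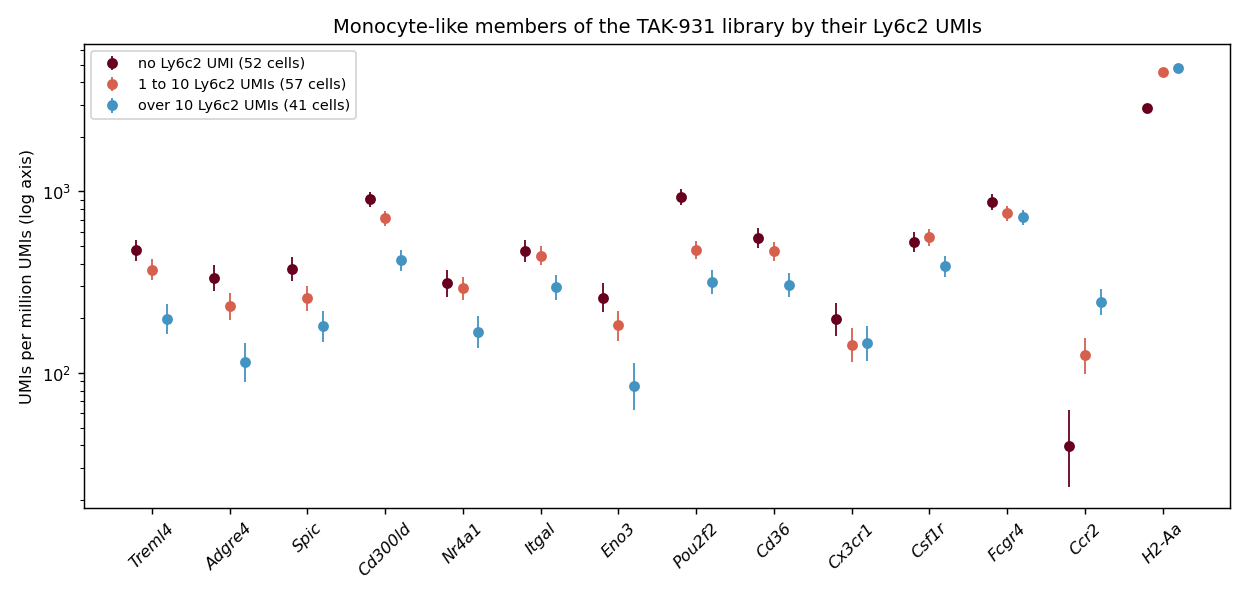
Levels in CPM (log axis, lines for 95% counting intervals) in monocyte-like cells of the TAK-931 library with no Ly6c2 UMI (52 cells), 1 to 10 (57 cells) and over 10 (41 cells). Treml4, Spic, Cd300ld and Nr4a1 are lower and Ccr2 is higher in cells with more Ly6c2.

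By the rule UMIs that chose them, and so as a description only, the monocyte-like cells fell into 34 with 3 to 5 UMIs (median depth 10730.5), 57 with 6 to 10 (9270) and 59 with over 10 (9356). In this order Cd300ld was at 386, 541 and 950 CPM, Spic at 176, 202 and 376 CPM, Nr4a1 at 75.1, 239 and 379 CPM, Eno3 at 69.9, 124 and 277 CPM and Itgal at 160, 314 and 628 CPM. Ly6c2 went from 1012 to 627 and 449 CPM and H2-Aa from 6378 to 4270 and 2713 CPM. At the edge of the rule, 10 monocyte-like cells with exactly 3 rule UMIs held Cd300ld at 300 CPM, Spic at 117 CPM and Ly6c2 at 1240 CPM, and 37 Csf1r-positive cells just outside it with 2 UMIs held 176, 69.6 and 1342 CPM. At the C1q edge, 11 cells with 5 to 9 C1q UMIs held Cd300ld at 533 CPM and Spic at 242 CPM, and 5 cells with 10 to 14 held 204 and 76.6 CPM.

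The libraries differed in how many cells met the rule. They were 6.19% of kept TAK-931 cells (216 of 3488) with a Clopper-Pearson interval of 5.42 to 7.04, against 0.320% of kept vehicle cells (11 of 3441) with an interval of 0.160 to 0.571, a difference of 5.87 percentage points (Newcombe interval 5.08 to 6.73). Monocyte-like cells alone were 4.30% (3.65 to 5.03) and 0.116% (4 cells, 0.0317 to 0.297). Among Csf1r-positive cells and cells of the rule, which numbered 1993 in the TAK-931 and 223 in the vehicle library, the shares were 10.8% (9.51 to 12.3) and 4.93% (2.49 to 8.65), 5.91 points apart (2.0 to 8.50). Shares were also taken among Csf1r-positive and monocyte-like cells under the endothelial and fibroblast limits, where 5 of the 150 TAK-931 monocyte-like cells held no Csf1r UMI. There 150 of 1871 TAK-931 cells, 8.02% (6.83 to 9.34), and 4 of 213 vehicle cells, 1.88% (0.514 to 4.74), were monocyte-like, 6.14 points apart (3.07 to 7.89). With each cell thinned to 4000 UMIs before the rule was applied, cells of the rule were 3.38% and 0.0581% of kept cells.

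The difference among Csf1r-positive cells depended on the marker minimum and on the C1q limit. With a minimum of 2 rule UMIs in place of 3, cells of the rule were 13.9% of TAK-931 and 13.1% of vehicle Csf1r-positive cells and cells of the rule, and 10.1% and 4.69% under the endothelial and fibroblast limits. Without the C1q limit and under the endothelial and fibroblast limits, 230 of 1872 TAK-931 cells, 12.3% (10.8 to 13.9), and 20 of 214 vehicle cells, 9.35% (5.80 to 14.1), held 3 rule UMIs, and the counting interval of the difference, 2.94 points (-1.92 to 6.52), included 0. In the vehicle library the rule genes lay on the other side of the limit. Among C1q-low cells, the monocyte-like cells included, 150 of 742 TAK-931 cells, 20.2% (17.4 to 23.3), and 4 of 96 vehicle cells, 4.17% (1.15 to 10.3), held at least 3 rule UMIs. Among C1q-high cells the shares were 79 of 1129, 7.0% (5.58 to 8.64), and 15 of 117, 12.8% (7.36 to 20.3). The C1q-low cells outside the rule held a median of 12742.5 UMIs in the TAK-931 and 8689 UMIs in the vehicle library. A fixed minimum is harder to reach in shallower cells, and these shares were not taken on thinned cells. The part of depth in them was not tested.

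Treml4 led this vehicle signal, and Spic, which the rule did not use, went with it. In vehicle C1q-high cells (median 13499 UMIs) Treml4 was at 65.3 CPM (54.1 to 78.1) and in those of the TAK-931 library (median 16824) at 16.3 CPM (14.6 to 18.1), and after thinning it was found in 18.8% (12.2 to 27.1) and 5.93% (4.63 to 7.48) of them. Without thinning the shares were 46.2% and 15.3%. Spic was at 163 CPM (145 to 183) and 58.7 CPM (55.5 to 62.1), while Cd300ld went the other way, at 59.2 CPM (48.6 to 71.5) and 120 CPM (116 to 125). Ace was lower in the vehicle C1q-high cells, with 1 UMI, 0.549 CPM (0.0139 to 3.06), against 188 UMIs, 8.78 CPM (7.57 to 10.1), in those of the TAK-931 library. The vehicle C1q-high cells therefore carried Treml4 and Spic with a single Ace UMI in all 117 cells.

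The 4 monocyte-like cells of the vehicle library were too few for a profile. Ace was at 8, 1, 1 and 0 UMIs, Treml4 at 0, 2, 2 and 2 and Adgre4 at 0, 1, 0 and 1. Spic was found in 1 of them and Cd300ld in 1 other, with 1 UMI each, and Csf1r at 3, 2, 1 and 5 UMIs. Their median depth was 7694.5 UMIs. The other 7 vehicle cells were 5 with endothelial and 2 with fibroblast genes, so that monocyte-like cells were 4 of 11 cells of the rule there, against 150 of 216 in the TAK-931 library.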

How the data were processed

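The authors prepared the libraries with Chromium Single Cell 3′ v3.1 chemistry and deposited UMI count matrices, 1 per library and raw in unit (counts per gene and barcode, not normalized). The submitters' processing notes name Cell Ranger 6.0.0 and mm10. The methods name hg38, yet all 32285 features carry mouse identifiers. Near-identical copies (Bcl2a1b and Bcl2a1d, Ly6c1 and Ly6c2, Pilrb1 and Pilrb2, H2-Q7 and its relatives) may share reads.

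Cells were gated as in the study (over 2000 genes, under 15% mitochondrial UMIs) and by the rule. Members and lists (30 lists, 262 genes of which 261 were features) were chosen with earlier results of these data known. UMIs were summed per group and scaled to CPM. Log2 ratios carry exact conditional binomial intervals, shares Clopper-Pearson and differences Newcombe intervals, levels exact Poisson intervals, and the interval of a list's median is that of its middle gene or genes. A sum of 0 was set to 3 UMIs. Genes were tested at 10 or more expected UMIs in each sum. Cells were thinned to 4000 UMIs (seed 0), which left out none in the groups given. T cells had at least 3 UMIs of CD3 genes and no Csf1r, and stood for free RNA.

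For all cells of the rule against other Csf1r-positive cells, and monocyte-like cells against C1q-low and C1q-high cells, the text names the 15 genes of highest and the 10 of lowest ratio with at least 50 UMIs in, and found in 25% of cells of, the higher group, the 10 most variable genes in at least 10% of cells, and genes of the lists. Mitochondrial, ribosomal, haemoglobin, immunoglobulin, unnamed and rule genes were left out of the ranking. Taking 15 and 10 genes, not 5 and 5, against C1q-low and C1q-high cells, and the endothelial and fibroblast limits, were choices made after values were seen. Doublets were kept, and alternatives left out cells with genes of another lineage or over 2 times the median UMIs. Python 3.11.15, numpy 2.4.6, scipy 1.17.1, pandas 2.3.3 and scikit-learn 1.9.0 were used, and the steps were tested on simulated data. Single values of a few list genes are not reported here, although list counts, medians and sums include them.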

Additional observations from a re-analysis of the deposited data

Results flagged for a closer look

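Below the gene limit, among barcodes with over 500 to 2000 genes that no comparison above used, 31 of 1147 TAK-931 barcodes met the rest of the rule and the endothelial and fibroblast limits, 2.70% (1.84 to 3.81), and 8 of 722 vehicle barcodes, 1.11% (0.480 to 2.17), a difference of 1.59 points (0.269 to 2.83). These barcodes were singled out because they lie outside the kept cells and exceeded the share in the vehicle library.

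The share of cells with at least 3 rule UMIs was 13.2 points higher (10.0 to 16.5) in C1q-low than in C1q-high cells of the TAK-931 library, and differed by -8.65 points (-16.3 to -0.863) in the vehicle library. The sign was opposite in the libraries. Depth differed between the cells compared, and these shares were not taken on thinned cells. With 1 library each, the difference between them was not tested, and treatment and library cannot be told apart.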

How the results depend on the processing

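Of 4360 values under the alternatives, 3114 stayed within their interval (counts of genes within 1.5 times), 1236 moved past it and 10, all at least 2-fold apart as reported, changed sign. No paired analysis was possible because each treatment had 1 library, which also left no replicate to leave out. The endothelial and fibroblast limits and the removal of the C1q limit were chosen after seeing the data. Where a cause is not given below, it was not tested. The limits in depth fall on the vehicle library, with 11 cells of the rule.

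Shares below are of kept cells and then among Csf1r-positive cells and cells of the rule, TAK-931 before vehicle. A marker minimum of 2 UMIs gave 8.06% and 0.901%, then 13.9% and 13.1%, and monocyte-like cells 5.45% and 10.1% in TAK-931. A minimum of 5 gave 4.85% and 0.116%, 8.57% and 1.83%, and monocyte-like cells 3.61% and 0.0291%, 6.74% and 0.469%. The rule without Ace gave 3.90% and 0.0581%, 6.96% and 0.922%, and monocyte-like cells 3.58% and 6.68% in TAK-931. On thinned cells it gave 3.38% and 0.0581%, 7.98% and 1.23%, and monocyte-like cells 3.21%. Leaving out cells with genes of another lineage gave 8.32% and 2.17% of the cells left, for all and for monocyte-like cells, and 9.72% of Csf1r-positive TAK-931 cells, and leaving out cells over 2 times the median depth gave 1.34% and 0.763% in the vehicle. Without a C1q limit shares were 8.72% and 0.785%, 15.2% and 12.1%, and of monocyte-like cells 6.59% and 0.581%, 12.3% and 9.35%. A limit of over 500 genes gave 5.37% in TAK-931. Cd300ld was found in 66.0% of cells thinned to 2000 UMIs and 94.7% unthinned, and Spic in 50% unthinned.

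Counts of genes higher in all 216 cells, against all other, C1q-low and C1q-high cells, became 476, 313 and 657 without Ace, 555, 421 and 743 on thinned cells, 450, 340 and 662 without other-lineage cells, 793, 912 and 1019 without deep cells, and 419, 318 and 612 under the endothelial and fibroblast limits. At 50 expected UMIs, where fewer genes were tested, they were 521, 700 and 646 higher and 322, 332 and 353 lower, and for monocyte-like cells 140 higher and 148 lower than C1q-low and 259 higher and 238 lower than C1q-high cells. At 5 expected UMIs 703 were lower than C1q-low cells, with a minimum of 2 rule UMIs 293, and median-ratio scaling left 366 higher than C1q-high cells. The fibroblast median of all 216 cells changed sign to -2.0, -3.02 and -0.60 without Ace, and to -0.19 and -0.41 (all other and C1q-high) without other-lineage cells and -0.21 and -0.37 under the limits, where the intervals include 0 and the filters use fibroblast genes, and without Ace Fbln2 (-0.12) and Fstl1 (-0.65) did so against C1q-low cells.

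For monocyte-like cells against C1q-low cells, Spic and Cd300ld had a median of 2.59 with a minimum of 2 rule UMIs and 2.38 on thinned cells, and non-classical genes 2.18, 2.07 and, at 50 expected UMIs, 2.05. Classical genes had -1.52 on thinned cells and macrophage genes 0.038 at 50 expected UMIs, with an interval that includes 0 and so no direction. Against C1q-high cells Spic and Cd300ld had 2.0 (minimum 2), 2.46 (minimum 5) and 2.08 (median-ratio scaling). Non-classical genes had 1.58 (minimum 2), 2.11 (minimum 5), 2.29 (both lower gene limits), 2.12 (without Ace), 2.24 (thinned), 2.23 (without other lineages), 2.17 (mean of cells), 1.71 (median ratio) and 1.46 (50 expected UMIs). Classical genes had 2.31 (minimum 2), 1.98 (C1q under 20) and 0.53 (50 expected UMIs). Macrophage genes had -3.52 (minimum 5), -3.42 (C1q under 5), -3.35 (without Ace), -3.51 (thinned), -4.26 (without other lineages), -3.41 (mean of cells), -3.31 (median ratio) and -3.43 (50 expected UMIs). The cell cycle median changed sign there to 0.54 at 50 expected UMIs.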
